A study of Mus musculus with 6 samples.

Results

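The genes described here are 10 genes of epithelial ion and fluid transport, read from the gene count table of CFPAC-1 cells in which KRT7 was silenced. They were taken by their Ensembl identifiers from a fixed list and make up 10 of the 30543 genes in the table. All 10 were found there. CFPAC-1 is an established human cell line of pancreatic adenocarcinoma (PAAD) from a patient with cystic fibrosis, the disease caused by defects of the chloride channel CFTR. The cells had been transfected with a siRNA against KRT7, a keratin of ductal epithelium (si-KRT7), or with a non-targeting siRNA as negative control (si-Control), with 3 libraries in each group. Both groups therefore went through transfection. The dose, the harvest time and the KRT7 duplex used for these libraries are not given in the sources used here. All libraries come from 1 cell line, and the labels do not say whether replicates were separate cultures, so p-values measure the spread between these libraries only. The sample labels give the organism as mouse, but every identifier in the table is a human one.

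Pancreatic ductal cells secrete a fluid rich in bicarbonate, which washes digestive enzymes into the gut. Chloride and bicarbonate leave the cell through apical anion channels, of which CFTR opens on cyclic AMP and ANO1 on calcium. The ions are taken up at the basolateral side by cotransporters that use the sodium gradient, potassium channels hold the membrane voltage that drives anion exit, carbonic anhydrase supplies bicarbonate from carbon dioxide, and water follows partly through aquaporins. Loss of CFTR in cystic fibrosis dries out this secretion and damages the pancreas.

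Counts were scaled to CPM, a gene's reads relative to a fixed library total, with edgeR's TMM factors, which lay between 0.976 and 1.03. Library totals ran from 28208896 to 36315802 counts. A gene was called changed with a Benjamini-Hochberg adjusted p under 0.05 in edgeR's quasi-likelihood test over 15736 genes. Of the transport genes, 8 passed the filter on low counts and were tested, and CFTR and SLC4A4 did not pass. Replicate 2 of si-KRT7 stood apart from the rest, with a Pearson correlation across genes (log2 CPM) of 0.982 with each of the other si-KRT7 libraries, against 0.992 between those libraries. Every pair of a si-Control and a si-KRT7 library, replicate 2 included, had a correlation of 0.983 to 0.986. Replicate 2 was thus no closer to its own group than to si-Control. Genes are not independent replicates. Results are therefore given with and without si-KRT7 replicate 2. Levels are compared between libraries and not between genes, because gene lengths were not used here. KRT7 was not paired with an identifier here, so the knockdown was not checked against its own counts.

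In si-KRT7 cells CLCA4, which encodes a regulator of calcium-activated chloride conductance, rose 2.49-fold, and AQP3, a channel for water and glycerol, fell to 0.761 of its si-Control level. The other 6 genes tested did not pass the limit in this fit of all 6 libraries. CFTR itself was represented by only 8 reads in the 6 libraries together. Thus 1 of the 8 genes was called higher, against 0.712% of all genes tested, and 1 was called lower, against 1.35% of all genes tested. CLCA4 also had an absolute log2 fold change over 1, which together with the adjusted p was met by 0.292% of all genes tested. CLCA4 was on the list because the study had singled it out in its own comparison of these libraries, so its change is not independent evidence. The groups did not overlap in 2 of the 8 genes, CLCA4 and AQP3, and in 24.4% of all genes tested. The median log2 fold change was -0.13 over the 8 genes and 0.01 over all genes tested. The median of its absolute value was 0.23 and 0.18, respectively.

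**Figure D1:**
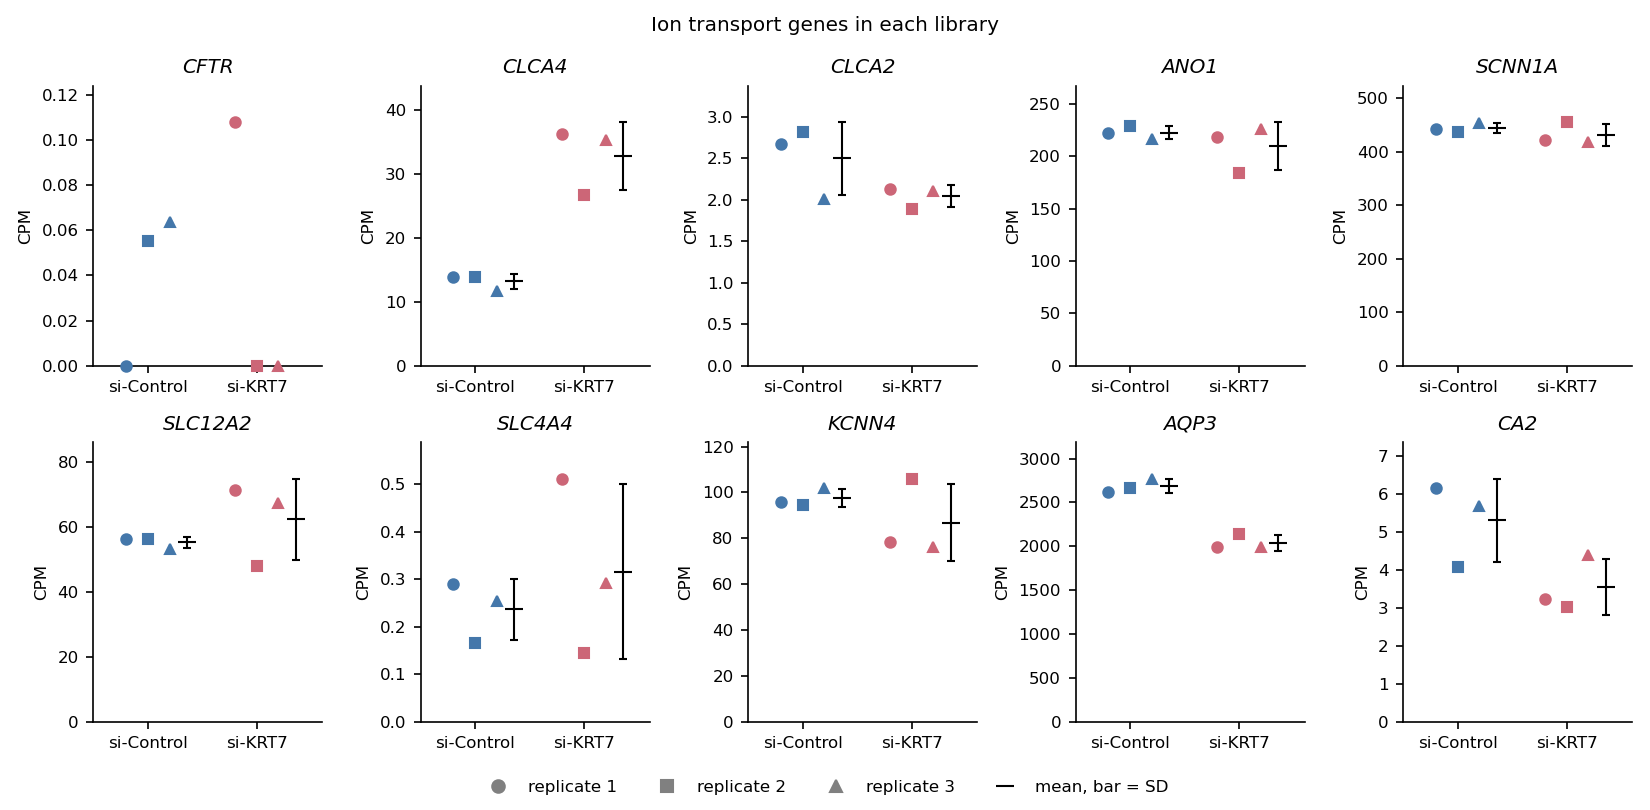
CPM (vertical axis, from 0, a scale of its own for each gene) of the 10 transport genes in the 3 si-Control and 3 si-KRT7 libraries, with symbols for replicates and a bar for mean and SD (left out for CFTR, where 3 libraries are at 0). The groups are apart for CLCA4 (11.7 to 13.9 against 26.6 to 36.2 CPM) and AQP3 (2616 to 2770 against 1987 to 2145 CPM), and overlap for the other genes.

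Among the anion channels, CFTR (ENSG00000001626) is the apical channel that is defective in cystic fibrosis. It had 0, 2 and 2 reads in si-Control replicates 1, 2 and 3, and 4, 0 and 0 reads in those of si-KRT7. Each group thus held 4 reads in all. This corresponds to 0.0392 CPM in si-Control cells (exact Poisson 95% interval 0.0107 to 0.10) and 0.0419 CPM in si-KRT7 cells (0.0114 to 0.107). The ratio of si-KRT7 to si-Control was 1.07, with an exact interval of 0.199 to 5.75, so a difference between the groups was not detectable at this depth. These intervals cover counting error only. In each library 3 reads correspond to between 0.0808 and 0.109 CPM, and only si-KRT7 replicate 1 held more than that. CFTR is commonly taken as a marker of ductal cells, and these libraries of a ductal line held almost no reads of it. The reason was not tested, and lists of ductal markers were not analysed here.

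ANO1 (ENSG00000131620) encodes a calcium-activated chloride channel of secretory epithelia. Its counts were far above those of CFTR without regard to gene length, with 5060 to 8289 reads per library. It stood at 222, 229 and 217 CPM in si-Control replicates 1, 2 and 3, and at 218, 184 and 226 CPM in those of si-KRT7. Replicates 1 and 3 of si-KRT7 lay within the si-Control range and replicate 2 below it. ANO1 had a log2 fold change of -0.09 (95% interval -0.30 to 0.12, adjusted p = 0.665 in edgeR). Without si-KRT7 replicate 2 it was -0.0043 (-0.08 to 0.07, adjusted p = 0.940 in edgeR).

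CLCA4 and CLCA2 belong to a family of secreted or membrane-bound proteins that modulate calcium-activated chloride conductance and do not form a channel pore themselves. CLCA4 (ENSG00000016602) stood at 13.9, 13.9 and 11.7 CPM in si-Control replicates 1, 2 and 3. In those of si-KRT7 it stood at 36.2, 26.6 and 35.2 CPM. Every si-KRT7 library was above every si-Control library, and the lowest of them, replicate 2, was at 202% of the si-Control mean. The group means were 13.1 ± 1.23 CPM (SD, n = 3) and 32.7 ± 5.28 CPM (SD, n = 3). The log2 fold change was 1.31 (standard error 0.14, adjusted p = 0.00672 in edgeR's quasi-likelihood test), the 25th smallest p of all genes tested. An exact permutation test, two-sided, gave p = 0.1, and 3 libraries against 3 cannot give less. Because the study had singled out CLCA4 in these libraries, neither the separation nor these p-values and the rank are independent evidence. CLCA4 had a log2 fold change of 1.44 without si-KRT7 replicate 2. This value was 1.24 to 1.35 when a si-Control library was left out, and in these 3 fits CLCA4 no longer passed the limit (adjusted p = 0.0702 to 0.0791 in edgeR).

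CLCA2 (ENSG00000137975), the other member of the family on the list, did not pass the test. It stood at 2.67, 2.82 and 2.0 CPM in si-Control replicates 1, 2 and 3, and at 2.13, 1.89 and 2.11 CPM in those of si-KRT7. The groups overlapped through si-Control replicate 3. Its log2 fold change was -0.29, with a 95% interval of -0.75 to 0.17 (adjusted p = 0.490 in edgeR). The counts were low, with 52 to 102 reads per library, and counting error alone gives a coefficient of variation of 11.5%. The interval of CLCA2 ends below that of CLCA4, which ran from 0.99 to 1.64. As CLCA4 was listed for its change in these libraries, this gap is not independent evidence.

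The ratio of CLCA4 to CLCA2 counts within a library does not depend on the scaling between libraries. It was 5.20, 4.92 and 5.86 in si-Control replicates 1, 2 and 3, and 17.0, 14.1 and 16.7 in those of si-KRT7. All si-KRT7 libraries were higher, including replicate 2. As CLCA4 was listed because the study had singled it out in these libraries, this separation is not independent evidence. This ratio was formed after the values had been seen. How reads that match several genes were assigned is not given in the sources used here.

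**Figure D2:**
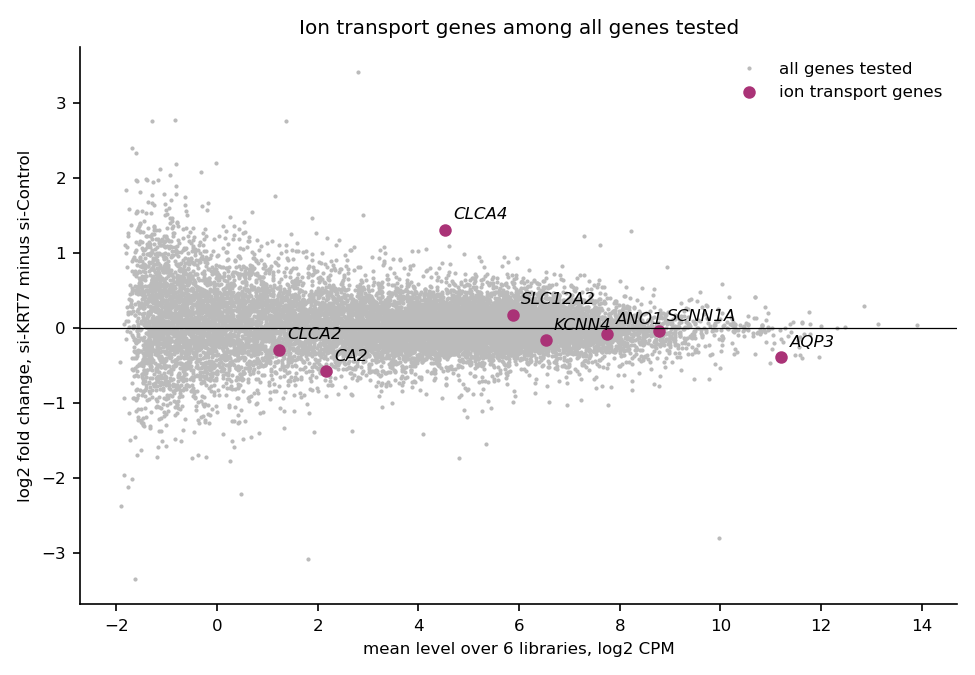
Log2 fold change of si-KRT7 against si-Control (vertical axis) by mean level over the 6 libraries in log2 CPM (horizontal axis), with all genes tested in grey and the 8 transport genes tested in purple. CLCA4 lies at 1.31, above the other transport genes, and AQP3 at -0.39 among the genes with the highest counts.

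SCNN1A (ENSG00000111319) encodes the alpha subunit of the epithelial sodium channel, which takes up sodium and with it fluid at the apical side, opposite in effect to secretion. Its level was 441, 437 and 454 CPM in si-Control replicates 1, 2 and 3, and 422, 454 and 417 CPM in those of si-KRT7. Replicates 1 and 3 of si-KRT7 lay below all si-Control libraries, and replicate 2 lay level with the highest of them. SCNN1A had a log2 fold change of -0.04 (95% interval -0.20 to 0.11, adjusted p = 0.785 in edgeR). Without replicate 2 it was -0.09 (95% interval -0.15 to -0.02, adjusted p = 0.0320 in edgeR). That fit rests on replicates 1 and 3 of si-KRT7 and called 22.0% of all genes tested lower.

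The uptake of ions at the basolateral side is represented by 2 cotransporters. SLC12A2 (ENSG00000064651) carries sodium, potassium and chloride into the cell together and so supplies chloride for secretion. It was at 56.2, 56.2 and 53.1 CPM in si-Control replicates 1, 2 and 3, and at 71.5, 48.0 and 67.3 CPM in those of si-KRT7. Replicates 1 and 3 of si-KRT7 were at 129% and 122% of the si-Control mean, above all si-Control libraries, whereas replicate 2 was at 86.9%, below all of them. With all libraries the log2 fold change was 0.17 (95% interval -0.15 to 0.50, adjusted p = 0.558 in edgeR). Without replicate 2 it was 0.33 (0.22 to 0.44, adjusted p = 2.24e-05 in edgeR), in a fit that called 20.9% of all genes tested higher. With all 6 libraries SLC12A2 passed in limma-voom with sample quality weights, at 0.30 (adjusted p = 0.000659). Such weights can count a library that stands apart for less, so this fit is not independent of leaving out replicate 2. Without the weights limma-voom gave 0.16 (adjusted p = 0.597).

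SLC4A4 (ENSG00000080493), the sodium bicarbonate cotransporter by which ductal cells take up bicarbonate, was close to the detection limit. It had 10, 6 and 8 reads in si-Control replicates 1, 2 and 3, and 19, 4 and 9 reads in those of si-KRT7. The si-KRT7 libraries held both the highest and the lowest value, and the groups overlapped. The fold change fitted without a filter was 0.43 on the log2 scale and was not tested. It was -0.10 without si-KRT7 replicate 1, so its direction rests on that library.

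KCNN4 (ENSG00000104783) encodes a calcium-activated potassium channel, which hyperpolarizes the cell and so favors the exit of chloride. Its values were 95.7, 94.7 and 102 CPM in si-Control replicates 1, 2 and 3, and 78.6, 106 and 76.0 CPM in those of si-KRT7. Replicates 1 and 3 of si-KRT7 were at 80.6% and 78.0% of the si-Control mean, and replicate 2 at 109%, above all si-Control libraries. The log2 fold change was -0.17 with all libraries (95% interval -0.46 to 0.13, adjusted p = 0.539 in edgeR). It was -0.34 without replicate 2 (-0.43 to -0.24, adjusted p = 2.90e-06 in edgeR), in a fit that called 22.0% of all genes tested lower. KCNN4 too passed with all 6 libraries in limma-voom with sample quality weights, at -0.32 (adjusted p = 0.000197). It did not pass in limma-voom without the weights, at -0.19 (adjusted p = 0.472).

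**Figure D3:**
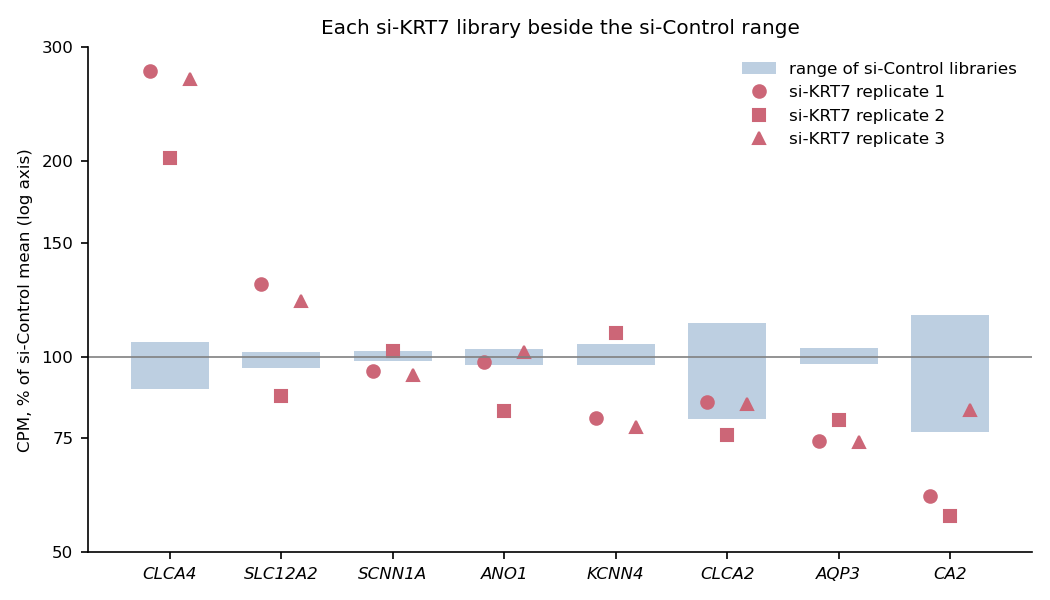
CPM of each si-KRT7 library in percent of the si-Control mean (vertical log axis) for the 8 genes tested, with bands for the range of the 3 si-Control libraries. Replicate 2 (squares) lies on the other side of the band from replicates 1 and 3 for SLC12A2, KCNN4 and, at the edge of the band, SCNN1A, and on the same side for CLCA4 and AQP3.

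In replicates 1 and 3 of si-KRT7, SLC12A2 thus lay above and KCNN4 below all si-Control libraries, and in replicate 2 each lay on the other side. The ratio of SLC12A2 to KCNN4 counts within a library was 0.587, 0.594 and 0.521 in si-Control replicates 1, 2 and 3. In those of si-KRT7 it was 0.909, 0.453 and 0.885. This ratio too was formed after the values had been seen. Whether replicate 2 differs in cells, transfection or library preparation was not tested, as the labels give no batch.

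AQP3 (ENSG00000165272), an aquaglyceroporin that passes water and glycerol, took between 0.203% and 0.273% of all counts in a library. It had 58987 to 96272 reads, more than any other of the 10 genes without regard to gene length. Its level was 2616, 2660 and 2770 CPM in si-Control replicates 1, 2 and 3, and 1993, 2145 and 1987 CPM in those of si-KRT7. All si-KRT7 libraries were below all si-Control libraries, at 74.3%, 80.0% and 74.1% of the si-Control mean. The group means were 2682 ± 79.3 CPM (SD, n = 3) and 2042 ± 89.5 CPM (SD, n = 3). The log2 fold change was -0.39 (standard error 0.06, 95% interval -0.54 to -0.25, adjusted p = 0.0243 in edgeR's quasi-likelihood test). The exact permutation test (two-sided) was at its smallest possible value, p = 0.1.

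The size of the AQP3 change varied little between fits, while its side of the limit did. The log2 fold change was -0.43 to -0.37 when each library was left out in turn. The fall passed the limit without si-KRT7 replicate 2 (adjusted p = 1.97e-11 in edgeR), in a fit that called 22.0% of all genes tested lower. It did not pass without any 1 of the other 5 libraries, where the adjusted p was 0.0894 to 0.198. With all 6 libraries the fall also missed the limit in edgeR's robust fit (log2 fold change -0.39, adjusted p = 0.0584). The ratio of AQP3 to SCNN1A counts within a library, formed after the values had been seen, was 5.93, 6.08 and 6.10 in si-Control replicates 1, 2 and 3. It was 4.72, 4.72 and 4.76 in those of si-KRT7, where replicate 2 did not stand apart. In bulk RNA, fewer cells that express a gene and less of its RNA per cell cannot be told apart.

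**Figure D4:**
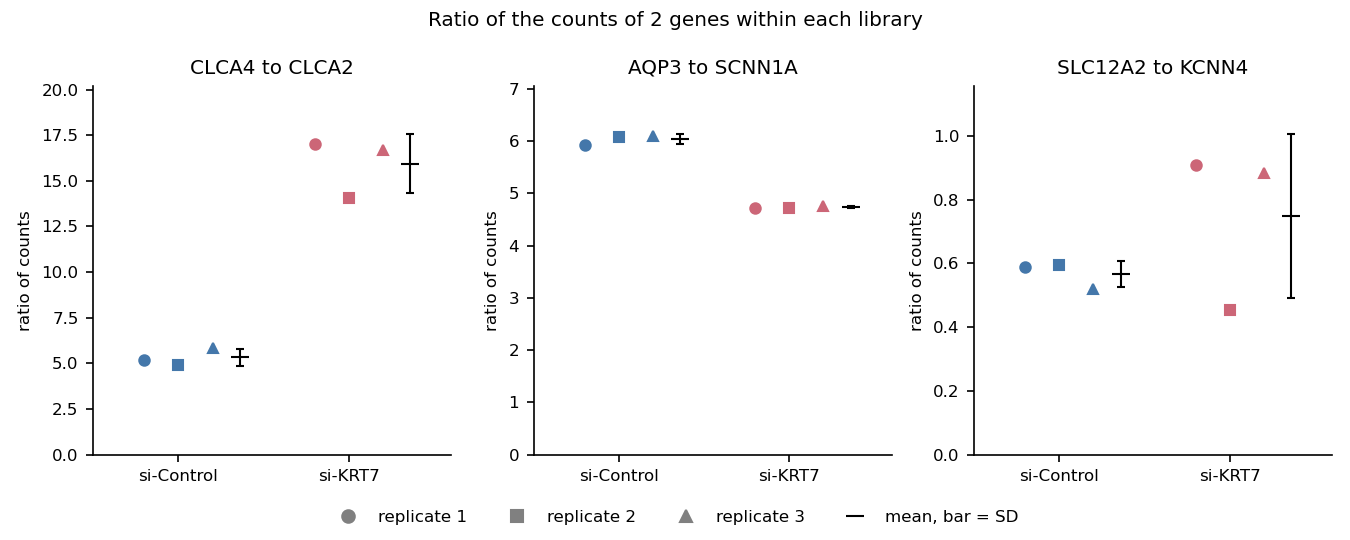
Ratio of the counts of 2 genes within each library (vertical axes from 0) in the 3 si-Control and 3 si-KRT7 libraries, with bars for mean and SD. The groups are apart for CLCA4 to CLCA2 (4.92 to 5.86 against 14.1 to 17.0) and for AQP3 to SCNN1A (5.93 to 6.10 against 4.72 to 4.76), while si-KRT7 replicate 2 lies below the si-Control libraries for SLC12A2 to KCNN4.

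CA2 (ENSG00000104267), the cytosolic carbonic anhydrase that forms bicarbonate from carbon dioxide and water, was at 6.14, 4.06 and 5.69 CPM in si-Control replicates 1, 2 and 3. It was at 3.23, 3.02 and 4.38 CPM in those of si-KRT7. All si-KRT7 values were below the si-Control mean of 5.30 ± 1.09 CPM (SD, n = 3), but the groups overlapped through si-Control replicate 2. CA2 had a log2 fold change of -0.58 (95% interval -1.07 to -0.09), and it did not pass after adjustment (unadjusted p = 0.0261, adjusted p = 0.203 in edgeR). CA2 had 83 to 212 reads per library, for which counting error alone gives a coefficient of variation of 8.28%.

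Without si-KRT7 replicate 2, 2 transport genes were called higher (CLCA4 and SLC12A2) and 4 lower (AQP3, CA2, KCNN4 and SCNN1A), among 9 genes tested, which then included SLC4A4. Of all 16202 genes tested in this fit, 20.9% were called higher and 22.0% lower. ANO1, CLCA2 and SLC4A4 did not pass in this fit. SLC4A4 had a log2 fold change of 0.77 in it, with a 95% interval of -0.47 to 2.02 (adjusted p = 0.329 in edgeR). The biological coefficient of variation common to all genes was 0.130 with all libraries and 0.0485 without replicate 2.

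**Figure D5:**
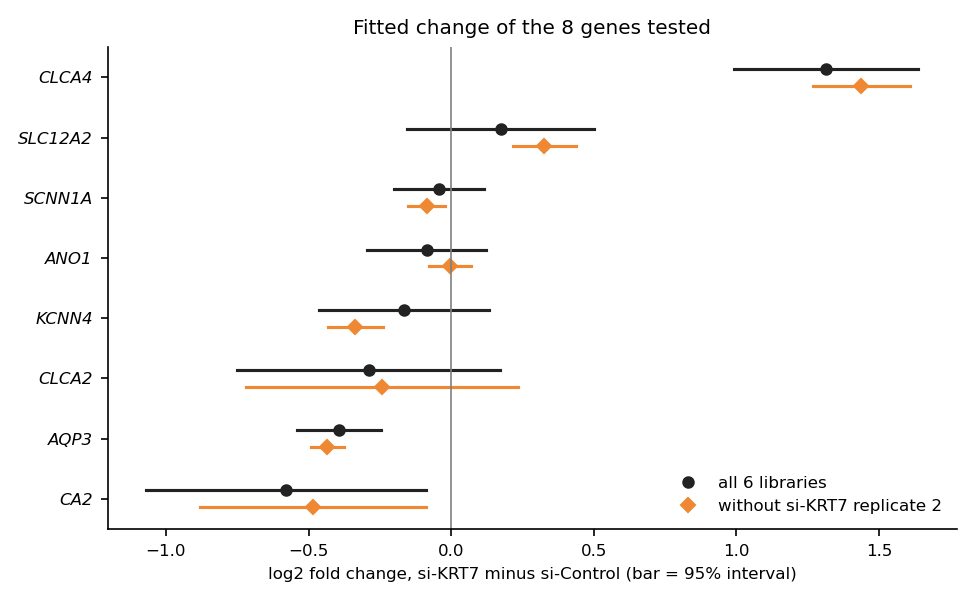
Log2 fold change of si-KRT7 against si-Control (horizontal axis) with its 95% interval for the 8 genes tested in edgeR, with all 6 libraries (black) and without si-KRT7 replicate 2 (orange). The intervals exclude 0 for CLCA4, AQP3 and CA2 in both fits, and for SLC12A2, KCNN4 and SCNN1A only without replicate 2. These intervals are not adjusted for the number of genes.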

How the data were processed

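Polyadenylated RNA of 3 si-Control and 3 si-KRT7 libraries was sequenced on the DNBSEQ platform. The authors deposited raw read counts for each gene in each library, not normalized. Their processing notes name STAR 2.7.11b and the mouse build GRCm39, which does not match the human identifiers in the file. The counting tool and annotation are not given in the sources used here. Groups came from sample titles. All libraries were analysed together in R 4.3.3 with edgeR 4.0.16: filterByExpr, TMM, glmQLFit, glmQLFTest and Benjamini-Hochberg adjustment over all genes tested. Standard errors were derived from the F statistic. CPM were computed from counts, without a pseudocount. Correlations between libraries were computed with a prior count of 2. Alternatives used DESeq2 1.42.0 and limma 3.58.1. The tests were checked on counts simulated with the same biological coefficient of variation for every gene. No simulated library stood apart as si-KRT7 replicate 2 does, so the check does not cover that feature of these data. No 2 libraries were repeats of one (mean chi-square per gene of at least 3.71).

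The genes and gene lists were chosen with earlier results of these data known. The rule was to name all 10 listed genes. Symbols came from the list, since 0 identifiers matched the mouse name tables used here. For this reason the lists of other transport genes, CFTR regulators and cell type markers, a check of the line against ductal markers, genes with a similar pattern, gene positions and sequences were not analysed here.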

Additional observations from a re-analysis of the deposited data

How the results depend on the processing

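Across 15 alternatives for each of the 8 genes tested, no fold change reversed. With all 6 libraries, 2 genes had an adjusted p under 0.05 and 1 also passed the fold change limit. With sample quality weights limma-voom called 4 (SLC12A2 and KCNN4 in addition), and the robust edgeR fit called 1, CLCA4 (adjusted p of AQP3 0.0584). The share of all genes called was not computed for these fits, and the cause of the differences was not tested. When each library was left out, the number with an adjusted p under 0.05 ran from 0 (without any si-Control library) to 6 (without si-KRT7 replicate 2), the number past both limits from 0 to 1, and the number of genes whose groups did not overlap from 2 to 5 (most without si-KRT7 replicate 2, where CLCA4, SCNN1A, SLC12A2, KCNN4 and AQP3 did not overlap). The fit without si-KRT7 replicate 2 called 20.9% of all genes tested higher and 22.0% lower. For the fits that left out any other library, the share of all genes called was not computed. Whether calls fell for all genes in those fits is therefore not known. How many of all genes had groups apart was not computed with a library left out. The 5 genes apart without that replicate therefore have no background to be compared with. The other scalings, filters, the DESeq2 Wald test and limma-voom gave the same counts as the edgeR fit of all 6 libraries. For these alternatives too, the share of all genes called was not computed. The adjusted p over all alternatives ran from 1.84e-18 to 0.0791 for CLCA4 and from 1.97e-11 to 0.198 for AQP3. CPM without TMM factors moved none of the 20 mean levels by more than 1 SD.

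With the replicate block in edgeR, 1 gene, CLCA4, had an adjusted p under 0.05 (0.0224), and AQP3 had 0.116. The share of all genes called with the block was not computed. Over all genes tested, the correlations of the deviations of libraries with a number in common were 0.0520, -0.0798 and -0.0728, which does not show a pairing. Depth limits CFTR, SLC4A4, CLCA2 and CA2 most, with at most 4, 19, 102 and 212 reads per library.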
